A study of Rattus norvegicus with 16 samples.

Results

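The amino acid breakdown enzymes described here are 9 liver genes: Sds, Gls2, Hal, Tat, Hpd, Oat, Tdo2, Kynu and Haao. They were taken by name, as rows of the deposited table that carry a single gene symbol. Each of the 9 had exactly 1 such row, out of 13215 genes that have such a row. The study measured total RNA from the livers of 16 male Sprague Dawley rats on Affymetrix Rat Exon 1.0 ST arrays, with 1 array for each animal. In 4 groups of 4 it compared fed rats, rats fasted until phase 2 (P2), rats fasted until phase 3 (P3), and rats that were fed again for 2 days after reaching phase 3 (P3r2). All rats were of the same strain and sex and no transgene is named. How long the fasts lasted, the ages and the time of day are not known from the labels, so the groups can be described only by phase and feeding state.

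When amino acids are used as fuel, their nitrogen is released as ammonia or passed to other carbon skeletons, and the liver turns it into urea. Phase 2 of a long fast spares body protein while fat is burned, and phase 3 is the stage at which protein breakdown speeds up. Several of these enzymes control the flow through their pathway, and glucocorticoids and glucagon are known to raise some of them in rat liver, Tat, Sds and Tdo2 among them.

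Reference sequence upstream of the transcription start was matched for 7 of the 9 genes, from RefSeq promoter windows of assembly GRCr8, Sds and Hal being named only. The stretches below are 250 bases before the start, written 5′ to 3′ on the strand of the gene. They are shown because Tat and Tdo2 begin the breakdown of tyrosine and tryptophan and were higher at phase 3, while Kynu, which follows Tdo2 in the same pathway, was lower. Capitals mark a match to a motif named after the sequences. Tat lies on the plus strand at chr19:54856354-54856603, Tdo2 on the minus strand at chr2:169585587-169585836, and Kynu on the plus strand at chr3:48188036-48188285.
Tat: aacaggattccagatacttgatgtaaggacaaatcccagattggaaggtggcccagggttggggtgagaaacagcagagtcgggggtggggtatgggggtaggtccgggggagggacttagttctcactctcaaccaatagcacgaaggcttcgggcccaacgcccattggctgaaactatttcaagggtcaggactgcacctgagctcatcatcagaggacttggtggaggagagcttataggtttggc
Tdo2: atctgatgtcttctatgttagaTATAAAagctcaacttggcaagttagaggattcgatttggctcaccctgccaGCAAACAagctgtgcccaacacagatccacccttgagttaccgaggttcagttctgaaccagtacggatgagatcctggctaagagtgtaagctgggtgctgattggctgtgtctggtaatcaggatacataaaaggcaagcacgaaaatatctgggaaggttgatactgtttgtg
Kynu: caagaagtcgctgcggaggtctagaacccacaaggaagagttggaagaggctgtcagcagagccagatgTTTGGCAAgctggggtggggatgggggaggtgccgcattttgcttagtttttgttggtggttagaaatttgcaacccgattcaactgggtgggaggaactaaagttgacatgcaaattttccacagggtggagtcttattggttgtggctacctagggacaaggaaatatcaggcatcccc

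The motifs were searched on both strands as letters alone, over these 250 bases in the members and in all 33469 windows of the table. The cyclic AMP element TGACGTCA, held by 1.59% of all windows, was in none of the members. Its core TGACG, which the longer element contains, was in 18.2% of windows and among members in Gls2. The C/EBP pattern TTNNGCAA stood in 9.22% of windows and in that of Kynu, 181 to 174 bases before the start. TGTTCT, the core of a glucocorticoid element, stood in 17.5% of windows and in that of Haao. Of the forkhead patterns, TGTTTAC (3.21% of windows) was in no member and TGTTTGC (4.16%) was in Tdo2, 176 to 170 bases before the start on the minus strand, and in the second of the windows of Gls2. The HNF4 pattern CAAAGTCCA (0.338%) was in no member. The letters TATAAA of a TATA box (12.9%) stood in Tdo2, 228 to 223 bases before the start, as a match of letters alone. Tat, Hpd and Oat held none of these letters in this stretch, which says nothing of the factors themselves or of sites farther away.

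The values are log2 signals as deposited, so a difference of 1 is a doubling of signal. Array signals were compared between groups for the same gene only, since probes differ in brightness. The correlation between arrays was 0.966 to 0.992 inside a group and 0.912 to 0.985 across groups. In 3 arrays, fed 2, P2 4 and P3 3, the signals spread least around their median (SD 2.12, 2.14 and 2.18 log2 units, against 2.21 to 2.37 in the other 13), and calls of the 9 enzymes that change without them are marked. The liver label was checked with 10 hepatocyte markers, of which 8 had a row. Their summed signal lay between 51872 and 62366 in fed, 61830 and 64695 in P2, 48927 and 53099 in P3, and 59313 and 60970 in P3r2 livers. Of these 8 markers, 1 was higher and 3 were lower in P3 than in fed livers. Against fed livers, P3 livers had 2 of 11 Kupffer cell markers higher, 1 of 3 endothelial markers higher, and 1 of 7 stellate cell markers higher with 3 lower. Of all rows, 11.3% were higher and 8.06% were lower in this comparison. The summed signals of the 4 lymphocyte and 6 neutrophil markers stayed between 46 and 99 on every array. The lowest log2 value of the whole table was 0.84, so the absence of a marker could not be read from a value of 0. In whole liver, fewer cells of a type and less RNA per cell cannot be told apart, and the part of these marker shifts in the results below was not tested.

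The enzymes that release nitrogen from serine, glutamine, histidine, tyrosine and ornithine, and Tdo2, had their highest signals at phase 3 of fasting. In P3 livers, Sds was 18.6-fold, Tdo2 3.23-fold, Gls2 2.46-fold, Tat 2.42-fold and Oat 2.06-fold higher than in fed livers. Kynu went the other way, with a 5.35-fold lower signal in P3 than in fed livers, and Haao showed no called change at phase 3. After 2 days of re-feeding, the enzymes that were higher at phase 3 were lower than at phase 3, while Kynu remained below fed livers. In what follows, each change is given on the log2 scale with the standard error from limma (4 arrays per group), and a gene is called where its two-sided limma p, adjusted over all 18885 rows, is below 0.05.

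**Figure D1:**
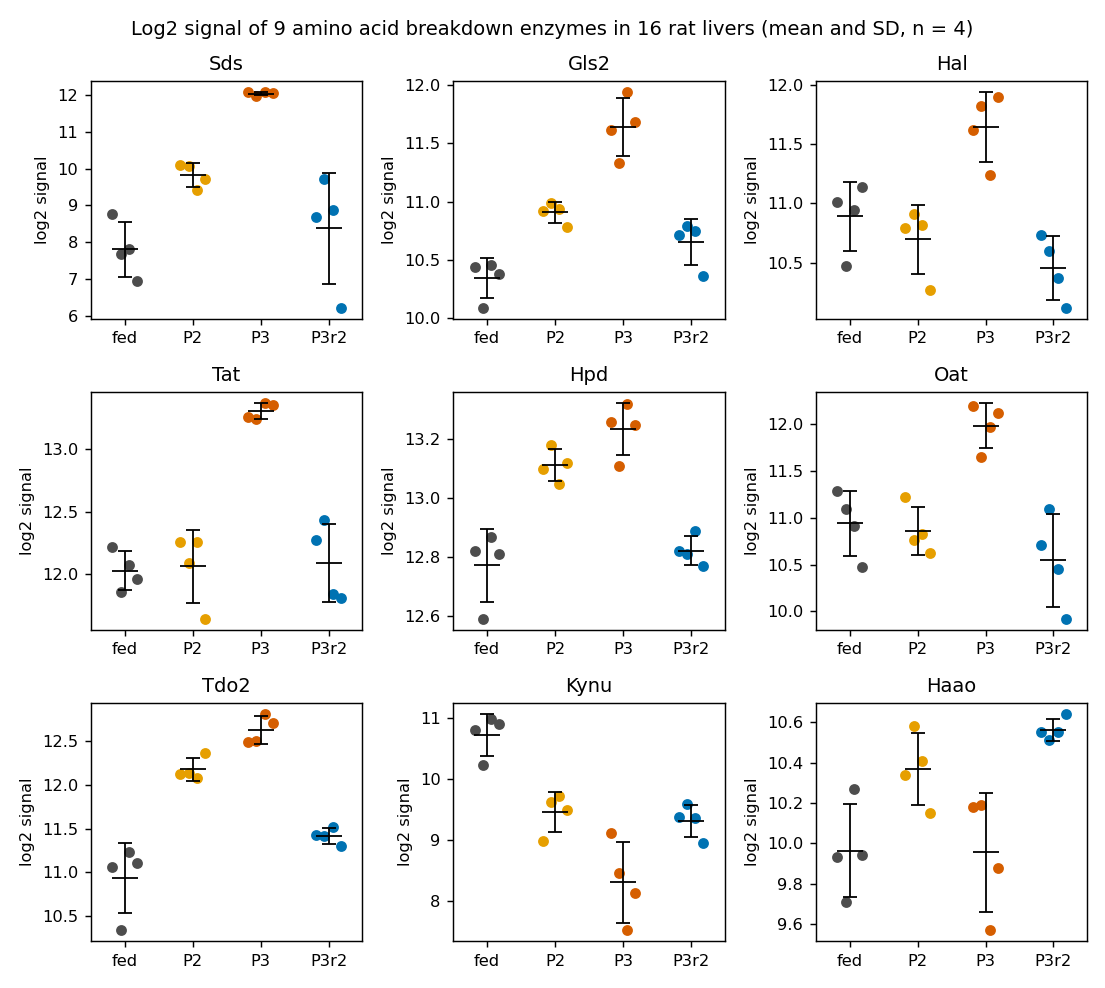
Log2 signal of the 9 enzymes, 1 panel per gene with its own axis, in the 4 arrays of each group; points are single animals, the long bar is the mean and the whiskers are the SD. For 7 genes the P3 group stands highest, Kynu is lowest in P3, and Haao is highest in P3r2 livers.

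Sds, serine dehydratase, turns serine into pyruvate and ammonia and links muscle-derived amino acids to glucose production. Its log2 signal was 8.76, 7.70, 7.82 and 6.96 in the 4 fed livers, and 10.09, 10.07, 9.41 and 9.71 in P2 livers. It reached 12.06, 11.96, 12.06 and 12.03 in P3 livers, and after re-feeding it was 8.69, 9.72, 8.88 and 6.23. The P3 values lay within 0.10 of each other and above all others, the P2 values lay above all fed values, and the P3r2 values spread over both the fed and the P2 range. The change of 4.22 ± 0.54 log2 units in P3 against fed livers, an 18.6-fold higher signal, was the largest of the 9 (adjusted p = 3.4e-05). P3 exceeded P2 by 2.21 ± 0.54 (adjusted p = 0.0073), and P3r2 lay below P3 by a log2 change of -3.65 ± 0.54 (adjusted p = 0.00014). P2 exceeded fed by 2.01 ± 0.54 (adjusted p = 0.025), a call that ended without fed 4 (adjusted p = 0.084), P2 1 (0.052), P2 2 (0.063) or P2 4 (0.059), and without the 3 arrays of narrow spread (0.079). P3r2 livers differed from fed livers by 0.57 ± 0.54 (adjusted p = 0.77). This difference rested on single animals, being 1.28 without P3r2 4 (adjusted p = 0.072), 0.89 without fed 1, 0.29 without fed 4 and 0.12 without P3r2 2 (adjusted p = 0.98), and no group of any of the 9 genes had a wider spread.

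Gls2, the liver form of glutaminase, frees ammonia from glutamine in mitochondria, next to the start of urea synthesis. In fed livers the signal was 10.44, 10.09, 10.46 and 10.38, and in P2 livers 10.92, 10.99, 10.94 and 10.78. The P3 livers had 11.61, 11.33, 11.94 and 11.68, and the P3r2 livers had 10.71, 10.79, 10.75 and 10.36. Fed, P2 and P3 formed 3 steps with no overlap, and P3r2 touched both the fed and the P2 range. P2 exceeded fed by 0.56 ± 0.14 (adjusted p = 0.015) and P3 exceeded P2 by 0.74 ± 0.14 (adjusted p = 0.00096). The difference of P3 from fed livers was 1.30 ± 0.14, or 2.46-fold (adjusted p = 5e-06), and that of P3r2 from P3 livers was -0.99 ± 0.14 (adjusted p = 7.5e-05). With arrays scaled to 1 spread, the step between P3 and P2 was 0.33 and no longer called (adjusted p = 0.28).

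Hal, histidine ammonia-lyase, takes ammonia from histidine and leaves urocanate. Its signal was 11.01, 10.47, 10.94 and 11.14 in fed livers and 10.79, 10.91, 10.82 and 10.27 in P2 livers. At phase 3 it was 11.62, 11.82, 11.24 and 11.90, and after re-feeding 10.73, 10.60, 10.37 and 10.12. P3 stood apart from each of the other groups, whose values overlapped with each other. P3 exceeded fed by 0.76 ± 0.19, or 1.69-fold (adjusted p = 0.01), and P2 by 0.95 ± 0.19 (adjusted p = 0.0019). P2 differed from fed by -0.19 ± 0.19 (adjusted p = 0.53). Against P3, P3r2 fell by 1.19 ± 0.19 on the log2 scale (adjusted p = 0.00031), and it lay -0.43 ± 0.19 from fed (adjusted p = 0.3), a difference that was called without the 3 arrays of narrow spread (-0.57, adjusted p = 0.042).

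Tat, tyrosine aminotransferase, starts the breakdown of tyrosine. Fed livers had 12.22, 11.86, 12.07 and 11.96, and P2 livers had 12.26, 12.09, 12.26 and 11.64. The 4 P3 livers had 13.26, 13.24, 13.37 and 13.35, and the P3r2 livers 12.27, 12.43, 11.84 and 11.81. The P3 livers alone stood apart, with an SD of 0.06, and the other groups shared a range. P3 exceeded fed by 1.28 ± 0.16, or 2.42-fold (adjusted p = 2.8e-05), and P2 by 1.24 ± 0.16 (adjusted p = 4.8e-05). Re-fed livers lay below P3 livers by a log2 change of -1.22 ± 0.16 (adjusted p = 4.9e-05). The differences of P2 (0.03 ± 0.16, adjusted p = 0.91) and P3r2 (0.06 ± 0.16, adjusted p = 0.95) from fed livers were smaller than the spread between animals.

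Hpd, the dioxygenase that acts next on the product of Tat, moved by less. Its signal was 12.82, 12.59, 12.87 and 12.81 in fed livers, 13.10, 13.18, 13.05 and 13.12 in P2 livers. It was 13.26, 13.11, 13.32 and 13.25 in P3 livers, and 12.82, 12.81, 12.89 and 12.77 in P3r2 livers. All 8 fasted livers lay above all 8 eating livers, while P2 overlapped with P3 and P3r2 overlapped with fed. P3 exceeded fed by 0.46 ± 0.09, or 1.38-fold (adjusted p = 0.0011), and P2 exceeded fed by 0.34 ± 0.09 (adjusted p = 0.02). The P2 call ended without P2 2 (adjusted p = 0.056) and without the 3 arrays of narrow spread (0.058). It also ended after quantile normalization, where the difference was 0.18 (adjusted p = 0.13), and in the fit of the 2 groups alone (0.085). The P3 call ended with arrays scaled to 1 spread (0.36, adjusted p = 0.4). P3r2 lay below P3 by a log2 change of -0.41 ± 0.09 (adjusted p = 0.0028), which was -0.66 and not called with arrays scaled (adjusted p = 0.079). Only 0.116% of all rows were brighter than Hpd on the array where it was dimmest, and Tat was almost as bright by this measure (0.672%). The brightest row of any array had 13.39 to 13.63, so these signals lay close to the upper end of the scale, where differences may come out too small.

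Oat, ornithine aminotransferase, moves the nitrogen of ornithine in mitochondria and ties the urea cycle to glutamate and proline. Signals of 11.29, 11.09, 10.91 and 10.48 were measured in fed livers and of 11.22, 10.76, 10.83 and 10.63 in P2 livers. P3 livers had 12.20, 11.65, 11.97 and 12.12, and P3r2 livers had 10.71, 11.10, 10.45 and 9.92. As with Hal and Tat, P3 livers lay above all others and the remaining groups overlapped. P3 exceeded fed by 1.04 ± 0.23, or 2.06-fold (adjusted p = 0.0036), and P2 by 1.13 ± 0.23 (adjusted p = 0.002). The fall in P3r2 against P3 livers, -1.44 ± 0.23, was the steepest after that of Sds (adjusted p = 0.00028). With arrays scaled to 1 spread, the difference of P3 from P2 livers was 0.71 and not called (adjusted p = 0.081).

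Tdo2, tryptophan 2,3-dioxygenase, opens the ring of tryptophan and begins the kynurenine pathway, which leads either to complete oxidation or to NAD. It had 11.06, 10.34, 11.23 and 11.11 in fed livers and 12.12, 12.14, 12.08 and 12.37 in P2 livers. P3 livers had 12.49, 12.50, 12.81 and 12.71, and P3r2 livers had 11.43, 11.42, 11.52 and 11.30. The 4 groups did not overlap at all, in the order P3, P2, P3r2 and fed. P2 exceeded fed by 1.24 ± 0.16, or 2.37-fold (adjusted p = 0.00033), and P3 exceeded fed by 1.69 ± 0.16, or 3.23-fold (adjusted p = 1.8e-06). The step of 0.45 ± 0.16 between P3 and P2 just missed the threshold (adjusted p = 0.057). It was called after quantile normalization (adjusted p = 0.0077), after median centring (0.038), with array weights (0.024), in the fit of the 2 groups alone (0.036) and among brighter rows (0.037), and its exact permutation p was 0.0286. It was also called without the 3 arrays of narrow spread (adjusted p = 0.0048), without fed 2 (0.0044) and without fed 3 (0.05 after rounding). With arrays scaled to 1 spread the step was -0.05 (adjusted p = 0.91). With single arrays left out it ran over 0.39 to 0.51 (adjusted p up to 0.13). Against P3, re-fed livers differed by -1.21 ± 0.16 (adjusted p = 5.3e-05), and against P2 by -0.76 ± 0.16 (adjusted p = 0.0059). P3r2 was 0.48 ± 0.16 above fed, which was not called (adjusted p = 0.14) but was called with array weights (0.38, adjusted p = 0.035), and the groups did not overlap (exact permutation p = 0.0286).

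Kynu, kynureninase, cuts kynurenine and its hydroxylated form further down the same pathway, and it was the enzyme that fell. Fed livers had 10.80, 10.23, 10.98 and 10.90, and P2 livers had 8.99, 9.63, 9.73 and 9.50. P3 livers had 9.12, 8.47, 7.53 and 8.13, and P3r2 livers had 9.38, 9.59, 9.36 and 8.96. All 4 fed livers lay above the other 12, while P3 overlapped with P2 and with P3r2 through its highest array. P2 differed from fed by -1.27 ± 0.28, a 2.40-fold lower signal (adjusted p = 0.0091), and P3 by -2.42 ± 0.28, a 5.35-fold lower signal (adjusted p = 1.2e-05). P3 was also below P2 (-1.15 ± 0.28, adjusted p = 0.0066), with an exact two-sided permutation p of 0.0571. After re-feeding the signal exceeded that of P3 by 1.01 ± 0.28 (adjusted p = 0.017, exact permutation p = 0.0571). This call ended without P3 3 (0.75, adjusted p = 0.053), P3 4 (adjusted p = 0.051) or P3r2 2 (adjusted p = 0.055). P3r2 remained below fed by a log2 change of -1.41 ± 0.28, a 2.66-fold lower signal (adjusted p = 0.012), and it was called in each fit that left out a single array (adjusted p at most 0.046).

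Haao, the dioxygenase that takes 3-hydroxyanthranilate toward quinolinate and NAD, had its highest values after re-feeding. It had 9.93, 9.71, 10.27 and 9.94 in fed livers and 10.34, 10.58, 10.41 and 10.15 in P2 livers. P3 livers had 10.18, 10.19, 9.57 and 9.88, and P3r2 livers had 10.55, 10.51, 10.55 and 10.64. The P3r2 values lay close together and above all fed and P3 values, and they overlapped with P2 through P2 2. P3r2 exceeded P3 by 0.61 ± 0.15, or 1.52-fold (adjusted p = 0.0081), but not after quantile normalization (0.32, adjusted p = 0.092) or with arrays scaled to 1 spread (0.43, adjusted p = 0.071). It exceeded fed by 0.60 ± 0.15 (adjusted p = 0.042), a call that ended in 10 of the 16 fits that left out a single array, with adjusted p up to 0.13 without fed 2. The arrays whose absence ended it were fed 1, fed 2 and fed 4, P2 1 and P2 3, P3 4, and each of the 4 P3r2 arrays. It also ended with arrays scaled to 1 spread (0.36, adjusted p = 0.34), with the trend of signal with gene length taken out (0.43, adjusted p = 0.071) and with limma's trend and robust options (adjusted p = 0.058). P3 and fed livers differed by -0.01 ± 0.15 (adjusted p = 0.99), and P2 and fed livers by 0.41 ± 0.15 (adjusted p = 0.082). The P2 difference was called without fed 3 (adjusted p = 0.042) and without P3 3 (adjusted p = 0.043), and also with arrays scaled (0.71, adjusted p = 0.0079), with array weights (0.031) and without the length trend (0.024). The other alternatives left it uncalled, with a limma adjusted p up to 0.19. P3 lay -0.41 ± 0.15 from P2 (adjusted p = 0.059), a difference called without fed 2 (adjusted p = 0.049), fed 3 (0.047), P2 4 (0.044), P3 1 (0.045) or P3 2 (0.037). It was called too with arrays scaled (-0.78, adjusted p = 0.0016), without the length trend (-0.58, adjusted p = 0.0027) and among brighter rows (0.04). Every other alternative left it uncalled, with a limma adjusted p up to 0.4. With single arrays left out it ran over -0.49 to -0.28 (adjusted p up to 0.16).

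In 8 of the 9 genes the lowest value of the re-fed group was on the array P3r2 4, Haao being highest there. That array was the lowest of its group for 51.4% of the 9442 brighter rows. In the fed group, fed 2 was lowest for 7 of the 9 genes and for 64.1% of the brighter rows. The low values of these arrays therefore went along with many other genes, and the part of array quality in them was not tested.

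At phase 2, 4 of the 9 genes were higher than in fed livers and 1 was lower. Sds, Tdo2, Gls2 and Hpd were higher by 2.01, 1.24, 0.56 and 0.34 log2 units, and Kynu was lower by a change of -1.27. Of all 18885 rows tested, 6.13% were higher and 6.58% were lower in this comparison. Tat, Hal, Oat and Haao were not called, with changes of 0.03, -0.19, -0.08 and 0.41. The median change of the 9 was 0.34, against 0.05 over all rows. Without P2 2 the count of genes called was 3, as it was without the 3 arrays of narrow spread, both times without Sds and Hpd.

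At phase 3 against fed livers, 7 of the 9 genes were higher and 1 was lower, where 11.3% of all rows were higher and 8.06% were lower. The changes of the genes that were higher ran over 0.46 for Hpd, 0.76 for Hal, 1.04 for Oat, 1.28 for Tat, 1.30 for Gls2, 1.69 for Tdo2 and 4.22 for Sds. Their groups did not overlap in any of the 8 genes called, and each exact permutation p was 0.0286, the smallest that 4 arrays against 4 allow. The median of the 9 was 1.04, against 0.03 over all rows. All 8 calls were made in each fit that left out a single array. The comparisons of P2, P3 and P3r2 with fed livers share the same 4 fed arrays, so they are not independent of each other.

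**Figure D2:**
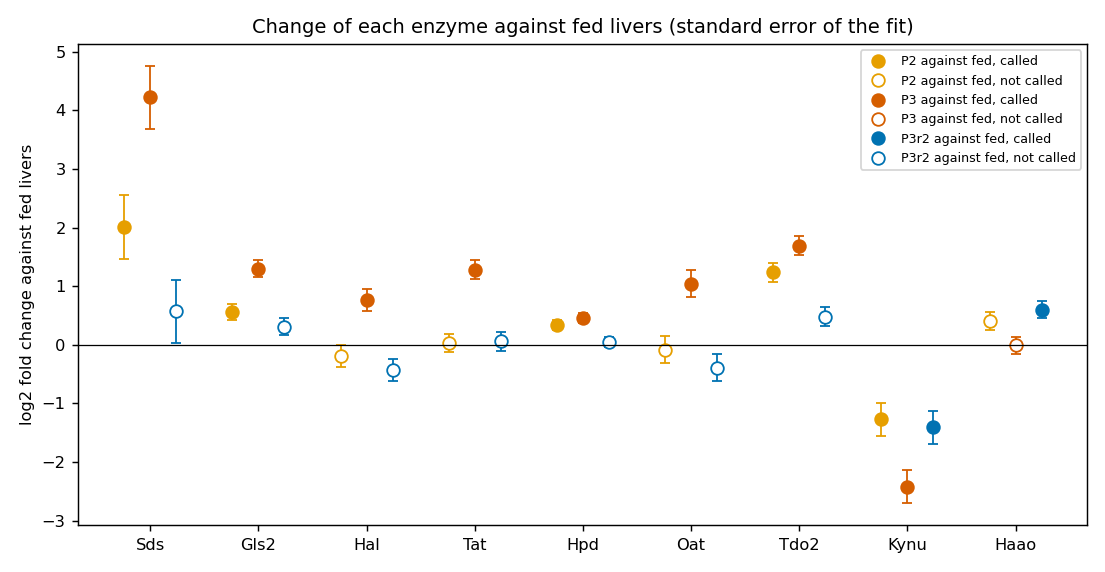
Log2 fold change of each enzyme in P2, P3 and P3r2 livers against fed livers; whiskers are the standard error of the fit, and filled points are called at an adjusted p below 0.05. At P3, Sds stands at 4.22 and Kynu at -2.42, and at P3r2 only Kynu and Haao are filled.

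Between the fasting phases, 5 genes were higher and 1 was lower in P3 than in P2 livers, where 13.5% of all rows were higher and 8.53% were lower. Sds (2.21), Tat (1.24), Oat (1.13), Hal (0.95) and Gls2 (0.74) were higher and Kynu (-1.15) was lower, and the median of the 9 was 0.74, against -0.03 over all rows. Tdo2 (0.45), Hpd (0.12) and Haao (-0.41) were not called. Tat, Hal and Oat were above fed at phase 3 and not called at phase 2, and Sds and Gls2 were higher at each stage. Tdo2 and Hpd were above fed at phase 2 with no called step to phase 3. That of Tdo2 was called under several other settings and was -0.05 with arrays scaled to 1 spread. Whether these time courses differ between genes was not tested.

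After 2 days of re-feeding, all 9 genes differed from phase 3. Of them, 7 were lower and 2 were higher in P3r2 livers, where 7.93% of all rows were lower and 10.5% were higher. The 7 lower genes were those that were higher at phase 3 against fed, and the 2 higher ones were Kynu (1.01) and Haao (0.61). This comparison uses the same P3 arrays as that of P3 with fed livers, and the 2 are not independent. The median of the 9 was -1.19, against -0.03 over all rows. With single arrays left out, 8 or 9 genes were called, the exception being Kynu without P3 3, P3 4 or P3r2 2.

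Against fed livers, re-fed livers had 1 gene higher, Haao, and 1 lower, Kynu, where 2.21% of all rows were higher and 0.514% were lower. The median change of the 9 was 0.06, against 0.02 over all rows. For the 7 enzymes that were higher at phase 3, the differences of P3r2 from fed livers ran over -0.43 for Hal, -0.39 for Oat, 0.05 for Hpd, 0.06 for Tat, 0.31 for Gls2, 0.48 for Tdo2 and 0.57 for Sds. None of these was called, which does not show that the levels were equal. Against P2 livers, P3r2 livers had 0 genes higher and 2 lower, Tdo2 (-0.76) and Hpd (-0.29), where 11.3% of all rows were higher and 4.36% were lower, and the median of the 9 was -0.25, against -0.03. The count of 0 was 0 also at an unadjusted limma p below 0.05 and by the exact permutation test. The call of Hpd there (adjusted p = 0.035) ended without P2 1, P2 2, P2 4 or any single P3r2 array (adjusted p up to 0.085), and it also ended after quantile normalization (-0.17, adjusted p = 0.16) and after median centring (-0.23, adjusted p = 0.081). Sds, not called at -1.44 (adjusted p = 0.083), was called without P3r2 2 (-1.89, adjusted p = 0.036) and was -0.73 without P3r2 4 (adjusted p = 0.15).

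The genes around Tdo2, Kynu and Haao did not move as a block. Of the 7 other measured genes of the tryptophan, kynurenine and NAD pathway, 2 were higher and 2 were lower in P3 than in fed livers. Their median was -0.41. Of all rows, 11.3% were higher and 8.06% were lower in this comparison, shares that stand beside each P3 against fed count below. Acmsd, which draws the product of Haao toward complete oxidation and away from NAD, was higher by 2.21 ± 0.39 (adjusted p = 0.00057). Its mean signal was 11.11 ± 0.19 in P3 livers and 8.90 ± 0.91 in fed livers (SD, n = 4 each). Qprt, which turns quinolinate into the precursor of NAD, lay on the lower side with -0.96 ± 0.22 (adjusted p = 0.0045). Kmo, the hydroxylase ahead of Kynu, was lower by -1.09 ± 0.34 (adjusted p = 0.035), a call that ended without fed 1, fed 3, fed 4, P3 3 or P3 4 (adjusted p up to 0.092). Without P3 3 the change of Kmo was -0.65. Kyat1, which sends kynurenine to kynurenic acid instead, was higher by 1.48 ± 0.21 (adjusted p = 8.6e-05). Aadat (-0.44 ± 0.29), Nadsyn1 (-0.41 ± 0.21) and Nmnat1 (0.07 ± 0.14) were not called.

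Several of these genes differed from phase 3 in the opposite direction after re-feeding. Qprt exceeded its P3 level by 1.66 ± 0.22 (adjusted p = 4.7e-05) and Kmo by 1.31 ± 0.34 (adjusted p = 0.013), and Acmsd fell by 1.65 ± 0.39 on the log2 scale (adjusted p = 0.0059). Of the 7 genes, 4 were higher and 1 was lower in P3r2 than in P3 livers, against 10.5% and 7.93% of all rows. At phase 2 against fed livers the order differed, as Kmo (0.56 ± 0.34), Qprt (0.49 ± 0.22) and Acmsd (0.99 ± 0.39) were not called while Kynu was already lower. Nadsyn1 (-0.79 ± 0.21) and Nmnat1 (-0.46 ± 0.14), which act at the end of NAD synthesis, were called lower there. Both calls ended when fed 1, fed 3, fed 4, P2 2 or P2 4 was left out, and that of Nmnat1 also without P2 1, P3 4 or any single P3r2 array, and without the 3 arrays of narrow spread (-0.48, adjusted p = 0.067).

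**Figure D3:**
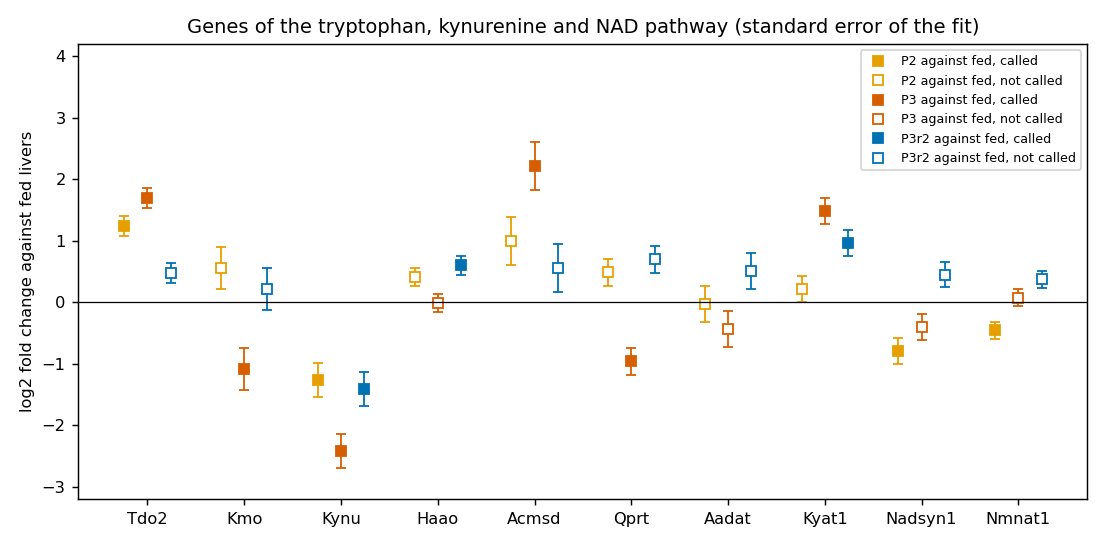
Log2 fold change against fed livers of the 10 measured genes of the tryptophan, kynurenine and NAD pathway. From left to right these are Tdo2, Kmo, Kynu, Haao, Acmsd, Qprt, Aadat, Kyat1, Nadsyn1 and Nmnat1, which is not throughout the order of the pathway. Whiskers are the standard error of the fit and filled squares are called. At P3, Tdo2, Acmsd and Kyat1 stand above 0 and Kmo, Kynu and Qprt below it.

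Of the 3 measured genes that act after Hal, 2 were higher with it at phase 3. Ftcd, which passes the formimino group of histidine to folate, was higher in P3 than in fed livers by 0.94 ± 0.12 (adjusted p = 3.7e-05), and Mthfd1, which interconverts folate units, by 1.14 ± 0.18 (adjusted p = 0.00024). Amdhd1, an enzyme between Hal and Ftcd, had 0.58 ± 0.47 (adjusted p = 0.52). All 3 were lower in P3r2 than in P3 livers, by -0.82 ± 0.12, -0.75 ± 0.18 and -1.79 ± 0.47. Ftcd was already above fed at phase 2 (0.80 ± 0.12, adjusted p = 0.001), where Hal was not, while Mthfd1 was lower there (-0.62 ± 0.18, adjusted p = 0.036). The phase 2 call of Mthfd1 ended without any single fed array, P2 2, P2 3 or P2 4 (adjusted p up to 0.11) and without the 3 arrays of narrow spread (-0.45, adjusted p = 0.1).

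In the tyrosine pathway, 2 of the 3 other measured genes were higher in P3 than in fed livers. Hgd, which opens the ring of homogentisate made by Hpd, was higher by 0.54 ± 0.16 (adjusted p = 0.025), and Qdpr, which regenerates tetrahydrobiopterin, by 0.49 ± 0.13 (adjusted p = 0.013). Fah, the last enzyme of the pathway, had -0.16 ± 0.15 and was not called. Hgd was not called without fed 2 (adjusted p = 0.078), without P3 4 (0.082) or without the 3 arrays of narrow spread (0.082). Qdpr was not called without those 3 arrays (0.051). Both calls also ended with arrays scaled to 1 spread (Hgd 0.11, Qdpr 0.23). The fit of the 2 groups alone ended them too (Hgd 0.11, Qdpr 0.057).

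Among the partners of Sds, Gls2 and Oat, the cytosolic transaminases were higher at phase 3. Got1, the cytosolic aspartate aminotransferase, was higher than in fed livers by 2.81 ± 0.22 (adjusted p = 2.4e-07) and Gpt, an alanine aminotransferase, by 1.83 ± 0.31 (adjusted p = 0.00041). Aspg, an asparaginase, was higher by 1.80 ± 0.21 (adjusted p = 1.4e-05). Got2, the mitochondrial counterpart of Got1, was lower by -0.71 ± 0.16 (adjusted p = 0.0043), and Gpt2 (0.52 ± 0.26) was not called. Glud1, glutamate dehydrogenase, differed by 0.35 ± 0.11 (adjusted p = 0.042), which was not called in 14 of the 16 fits without a single array, P2 1 and P2 4 being the exceptions. Of the 8 measured genes of this group, 4 were higher and 1 was lower.

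Sdsl, a relative of Sds, followed it at phase 3 with 1.99 ± 0.12 (adjusted p = 1.8e-08). It was lower in P3r2 than in P3 livers by -1.20 ± 0.12 (adjusted p = 3e-06). Unlike Sds, it was still called above fed livers after re-feeding (0.79 ± 0.12, adjusted p = 0.0023). That call ended after quantile normalization (0.58, adjusted p = 0.083). Other genes of serine and glycine use were split. In P3 against fed livers, Dao, which oxidizes D-amino acids, had -3.03 ± 0.37 (adjusted p = 2.3e-05), Gldc, a part of the glycine cleavage system, -2.16 ± 0.42 (adjusted p = 0.0013), and Shmt2, the mitochondrial serine hydroxymethyltransferase, -1.82 ± 0.22 (adjusted p = 1.9e-05). Agxt, which transaminates alanine and glyoxylate, was higher by 1.43 ± 0.16 (adjusted p = 9.3e-06), and so was Gnmt, which methylates glycine, by 1.03 ± 0.22 (adjusted p = 0.0029). Over the 14 measured genes of serine, threonine and glycine breakdown, 3 were higher and 6 were lower, against 11.3% and 8.06% of all rows.

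Genes of the remaining pathways were split. Of all rows, 11.3% were higher and 8.06% were lower in P3 than in fed livers. Of 20 measured genes of branched-chain amino acid breakdown, 3 were higher in P3 than in fed livers, Dbt (1.88 ± 0.14) and Ppm1k (1.45 ± 0.28), a subunit and an activating phosphatase of the branched-chain ketoacid dehydrogenase, and Pcca (1.11 ± 0.16). Another 4 were lower, Acad8 (-1.09 ± 0.21), Hibch, Aldh6a1 and Mcee. The calls of Hibch, Aldh6a1 and Mcee ended in the fit of the 2 groups alone (adjusted p = 0.1, 0.13 and 0.097). They also ended without P3 3 (adjusted p = 0.063, 0.13 and 0.059). Of 13 measured sulfur amino acid genes, 5 were higher, with Mat1a (1.25 ± 0.11) and Cbs (1.28 ± 0.21) among them, and 7 were lower, led by Csad (-2.83 ± 0.29), which makes the precursor of taurine. In the lysine pathway 0 of 5 measured genes were higher by the limma call (0 also at an unadjusted p below 0.05) and 1 was lower, Aldh7a1 (-0.66 ± 0.19). That call ended without fed 1, fed 3, P3 3 or P3 4 (adjusted p 0.057 to 0.067), after quantile normalization (0.062) and in the fit of the 2 groups alone (0.08).

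Over all these pathways, 71 genes other than the 9 had a row of their own. In P3 against fed livers, 19 of them were higher and 21 were lower, with a median of -0.16. Of all rows, 11.3% were higher and 8.06% were lower there. Of the 9, 7 were higher, and the median of the 9 was 1.04. The counts of the 71 were 15 higher and 8 lower in P2 against fed livers (6.13% and 6.58% of all rows). They were 17 and 25 in P3 against P2 (13.5% and 8.53%), and 27 and 17 in P3r2 against P3 (10.5% and 7.93%). In P3r2 against fed livers, 3 of the 71 were higher and 0 lower by the limma call (6 lower at an unadjusted p below 0.05), and in P3r2 against P2 11 were higher and 12 lower. These last counts leaned on the scaling, with 6 higher and 24 lower where arrays were scaled to 1 spread and 9 and 22 without the length trend. They fell to 8 and 6 without P2 2 and to 6 and 8 without P2 4. Of all rows, 2.21% were higher and 0.514% were lower in P3r2 against fed livers. In P3r2 against P2 livers the shares were 11.3% and 4.36%. The 9 were chosen with earlier results of these data known, so the contrast with the 71 is a description.

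**Figure D4:**
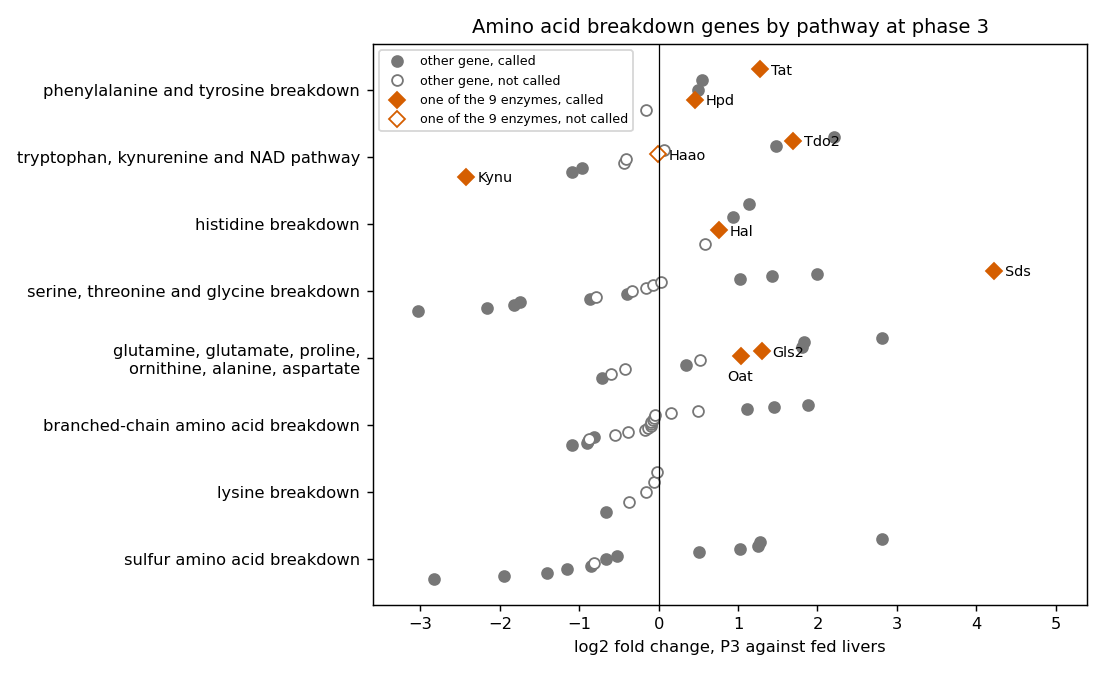
Log2 fold change in P3 against fed livers of the 9 enzymes (diamonds) and of the 71 other measured genes (circles) of 8 amino acid breakdown pathways; filled symbols are called, and genes on more than 1 list appear in each. The vertical offset within a pathway only separates points; Sds lies at 4.22 and Kynu at -2.42, and circles lie on both sides of 0.

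Regulators known to act on some of these genes were also compared at phase 3. Of the 14 measured, 5 were higher than in fed livers, 2 were lower and 7 were not called. Of all rows, 11.3% were higher and 8.06% were lower there. Ppargc1a, a coactivator of fasting genes, was higher in P3 than in fed livers by 5.10 ± 0.29 (adjusted p = 9e-09), with a mean of 9.80 ± 0.67 in P3 and 4.69 ± 0.37 in fed livers (SD, n = 4 each). Cebpb (2.12 ± 0.14) and Klf15 (2.09 ± 0.21), transcription factors of amino acid and glucose metabolism, were higher, and Crtc2, a coactivator of cyclic AMP signalling, was higher by 0.89 ± 0.14. Foxo1, a forkhead factor of fasting, was higher by 0.71 ± 0.23 (adjusted p = 0.038), a call that ended without any single fed array, P3 1, P3 2 or P3r2 1 (adjusted p up to 0.12) and after quantile normalization (0.051). Gcgr, the glucagon receptor, was lower by -2.30 ± 0.30 (adjusted p = 4.9e-05), and Cebpa was lower by -0.92 ± 0.21. Nr3c1, the glucocorticoid receptor, was not called at phase 3 (0.39 ± 0.24, adjusted p = 0.33). At phase 2 it was lower by -0.99 ± 0.24 (adjusted p = 0.014), a call that ended without P2 4 (adjusted p = 0.055). In P3 against P2 livers, Nr3c1 was called higher by 1.38 ± 0.24. Of the 14 regulators, 8 were higher and 2 were lower there, against 13.5% and 8.53% of all rows. In P3r2 against P3 livers, 5 of the 14 were lower and 4 were higher, against 7.93% and 10.5% of all rows. Ppargc1a (-4.01 ± 0.29), Cebpb (-1.72 ± 0.14), Klf15 (-1.62 ± 0.21) and Crtc2 (-0.88 ± 0.14) were among the lower ones and Gcgr (2.38 ± 0.30) among the higher ones. These are transcript levels, and whether any of these regulators acted on the 9 enzymes was not measured.

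In rodent liver, Sds, Hal and Gls2 are known as genes of the periportal zone and Oat as a gene of the pericentral zone. Genes of both zones were checked beside them. Of 10 other measured periportal genes, 6 were higher in P3 than in fed livers and 4 were lower (median 0.56). Asl, a urea cycle enzyme, had 2.50 ± 0.13, and Cyp2f4, a cytochrome P450, had -3.19 ± 0.29. Of 12 other measured pericentral genes, 3 were higher and 9 were lower (median -1.17). Slc1a2, a glutamate transporter, had 3.72 ± 0.37, and Rgn, regucalcin, had -5.51 ± 0.55. The part of zonation in the changes of the 4 enzymes was not tested.

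The likeness of 2 patterns was measured as the root mean square difference between their log2 signals over the 16 arrays, each gene centred on its own mean. Among the 9 enzymes, Tat was closest to Oat (0.27), Gls2 (0.28) and Hal (0.29), and Kynu and Sds were farthest apart (2.53). Among the 8248 brighter genes compared, the nearest to Tdo2 were Tmem38b (0.13) and Pbld1 (0.15), and Tmem38b had means of 8.28, 9.49, 9.93 and 8.77 in fed, P2, P3 and P3r2 livers. Mat1a (0.15) and Ubl3 (0.16) were nearest to Gls2, with means of Mat1a at 11.79, 12.47, 13.04 and 12.12 in the same order. Nearest to Tat were Pes1 (0.19) and Prkaa2 (0.19), to Hal Calcoco1 (0.18) and Txnip (0.18), and to Oat Tat itself and Rbm4b (0.29). Kynu was followed most closely by Pgpep1 (0.27) and Gk (0.34), glycerol kinase, and Gk had means of 10.25, 8.99, 7.93 and 8.90 over the 4 groups. For Sds even the nearest genes, the amino acid transporter Slc16a10 (0.71) and Slc1a2 (0.75), lay farther off, and for Hpd (Agap3 0.11, Trappc6b 0.12) and Haao (Ogfod3 and Dhrs11, 0.14 each) the small differences go with patterns that move little. The arrays and groups are shared by all these genes, so likeness describes their levels only.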

How the data were processed

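Total RNA of 16 rat livers was hybridized to exon arrays, 1 array per animal. The deposited table gives log2 signals per transcript cluster, which the authors made with GCOS and version 1.1 of Affymetrix Expression Console, according to the submitters' processing notes. How probes were summarised, how background was corrected and which genome build was used is not given in the sources used here. Since the values run over 0.84 to 13.6, base 2 logarithms were assumed. Signals can be compressed at both ends of the scale.

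Of 19418 rows, 533 with identifiers below the annotated range were left out, and 18885 were tested. Groups were taken from the sample titles. A limma 3.58.1 model in R 4.3.3 with a mean per group was fitted over all 16 arrays, with 6 comparisons, eBayes moderation and two-sided p-values adjusted by Benjamini-Hochberg over every row tested. The steps were tested on simulated data with independent noise, which held no array-wide effects and no unequal spread of arrays. The number of arrays limits the precision. Exact permutation tests used all 70 assignments of 8 arrays. The 9 genes, the pathway and marker lists, the alternatives and the rule for other named genes were chosen with earlier results of these data known. That rule takes up to 4 called genes of largest change per list and comparison, a set of key genes, and the 2 genes of nearest pattern for each enzyme, of which the text names a part. Fah, Agxt, Cebpa, Crtc2 and Foxo1 lie outside the rule and were chosen after their values were seen. Alternatives were 3 scalings, eBayes with trend and robust options, array weights, a fit of only the groups compared, brighter rows alone, a threshold of 0.01, gene means over rows (each enzyme has 1 row, and no call changed), replicate number as a block, a fit without fed 2, P2 4 and P3 3, removal of the gene length trend, the exact test, and each array left out in turn. Deviations of same-numbered arrays from their group means correlated at -0.40 to 0.26. Arrays of different numbers were not compared in this way, so these values cannot decide whether the numbers pair the arrays. Sequences are RefSeq's (GRCr8). Figures were drawn with matplotlib 3.10.9.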

Additional observations from a re-analysis of the deposited data

How the results depend on the processing

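The 9 genes gave 32 calls over 6 comparisons, of which 18 were made under all 29 alternatives, and none of the 32 changed sign. The number of genes called in P3 against fed, P3 against P2 and P3r2 against P3 livers stayed within 1.5 times of 8, 6 and 9 under every alternative. The other counts leaned on settings. P2 against fed (5) had 2 at a threshold of 0.01, 3 without fed 2, P2 4 and P3 3, and 3 to 6 with single arrays left out. P3r2 against fed (2, Haao and Kynu) had 1 with trend and robust options, 0 at 0.01 and 1 to 2 with single arrays left out. Its count of 2 stood with arrays scaled and without the length trend only because Hal was called there (-0.68, adjusted p = 0.0034, and -0.59, adjusted p = 0.018) and Haao was not. P3r2 against P2 (2) had 1 after quantile normalization, after median centring and at 0.01, 7 with arrays scaled to 1 spread, 5 after the gene length trend was removed, and 1 to 2 with single arrays left out. With the replicate number as a block, P3r2 against fed and P3r2 against P2 each had 1, as Haao (adjusted p = 0.084) and Hpd (adjusted p = 0.06) were no longer called, and it ended no other call of the 32. The sample titles do not say what the replicate numbers mean, and the reason for these losses was not tested.

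Values whose sign turned were all of differences not called before. For P2 against fed, Tat had -0.09 after quantile normalization, -0.01 after centring, -0.03 without the length trend and -0.04 to 0.17 with single arrays left out. Hal had 0.12 with arrays scaled, and Oat 0.23 with arrays scaled, 0.04 without the 3 arrays and -0.24 to 0.03 with single arrays left out. For P3 against fed, Haao had 0.20 after quantile normalization, 0.04 with array weights, 0.04 without the 3 arrays and -0.09 to 0.12 with single arrays left out. For P3 against P2 with arrays scaled, Tdo2 had -0.05 and Hpd -0.44. For P3r2 against fed, Tat had -0.26 with arrays scaled, -0.11 without the length trend and -0.06 to 0.15 with single arrays left out. Hpd there had -0.30, -0.12 and -0.01 to 0.08 under the same settings, and -0.01 without the 3 arrays. For P3r2 against P2, Tat had -0.68 with arrays scaled (adjusted p = 0.04), -0.11 without the 3 arrays, -0.08 without the length trend and -0.11 to 0.12 with single arrays left out. Haao there had -0.35 with arrays scaled and -0.01 without the length trend. The causes were not tested.

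The counts of the 71 other genes were recomputed after the data were seen. Of their 40 calls in P3 against fed livers, 29 to 40 were kept over 26 alternatives, with fewest in the fit of the 2 groups alone, and 0 changed sign. In P2 against fed livers 14 to 23 of 23 were kept, in P3r2 against P3 livers 36 to 44 of 44, in P3 against P2 livers 36 to 42 of 42, in P3r2 against fed livers 1 to 3 of 3, and in P3r2 against P2 livers 14 to 23 of 23, where Got2 turned sign with arrays scaled (-0.01). With that scaling P3 against P2 livers had 12 higher and 37 lower, against 17 and 25. Hpd and Tat had signals near the top of the scale, where differences may come out too small, which was not tested.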
